A study of Mus musculus with 4 samples.

Results

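The 9 genes described here are markers of luminal progenitor cells of the mammary gland, or encode proteins that luminal cells carry on their apical surface or secrete. They are Ltf, Lcn2, Kit, Cd14, Prom1, Tspan8, Muc1, Wfdc18 and Ly6d, chosen by name, and each was measured by 1 probe set annotated to that gene alone, so they are 9 of 19938 genes on the array. Their signals were compared between terminal end buds, the growing tips of the pubertal mammary ducts, of control mice and of mice with a conditional knockout of Ovol2. This gene encodes a zinc finger repressor of the epithelial-mesenchymal transition. Each group had 2 single-colour Affymetrix arrays, and each array held a separate pool of female mice of strain C57/BL6, with 2 mice in a control pool and 3 in a knockout pool.

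Control mice are labelled Ovol2flox/+, and the treatment protocol allows Ovol2flox/+ with or without K14-Cre. Knockout mice are labelled Ovol2flox/-;K14-Cre, so both groups carry a floxed allele and the knockouts carry a minus allele besides. The keratin 14 promoter that drives Cre works in the basal layer of skin and of glandular epithelium. Which cells of the end buds, basal or luminal, had lost Ovol2 was not tested. The age is 4.5 weeks in the sample labels and 24 to 25 days in the series text. Pool size and genotype changed together and cannot be told apart.

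The mammary duct has an outer basal layer and an inner luminal layer, and the luminal layer holds hormone-sensing cells and hormone receptor-negative progenitor cells that can give rise to the milk-making alveoli. Progenitor cells are known for KIT and CD14 on their surface and for secreted proteins of innate defence, among them lactoferrin and lipocalin 2, which keep iron from bacteria. Several of these genes are also active in other cells: Ltf and Lcn2 in neutrophils, Cd14 in monocytes and macrophages, Kit in mast cells and melanocytes, and Ly6d in B-lineage cells and keratinocytes.

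Of the 9 genes 4 rose in the knockout and 0 fell, while 5 were not past an adjusted p of 0.05 in limma (Benjamini-Hochberg over 11963 tested genes, 2 arrays per group). Across all tested genes, 6.29% rose and 4.45% fell, 10.7% in all. Ltf rose 2.69-fold, Tspan8 1.28-fold, Cd14 1.27-fold and Prom1 1.26-fold. The median log2 difference was 0.33 over the 9 genes and -0.022 over all tested genes. Both knockout arrays lay above both control arrays for 6 of the 9 genes (Ltf, Lcn2, Cd14, Prom1, Tspan8 and Muc1), against 26.4% of tested genes, and below them for 1 gene, Wfdc18, against 29.9%. Values overlapped for Kit and Ly6d. The 9 genes were proposed with results of these arrays known, so their share above the background is a description and not independent evidence. The number that rose was 2 of 9 without control replicate 1, where 2.6% of all tested genes rose, 3 without control replicate 2 (6.51%), 6 without knockout replicate 1 (9.73%) and 3 without knockout replicate 2 (5.82%). It was 6 in the deposited values (8.49%), 1 with median centring (4.01%), 0 with a variance prior without the trend (1.2%), 6 with the replicate number as a block (9.78%) and 4 with crossed numbers (5.98%).

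Signals are given as log2(signal + 16) after quantile normalization unless called deposited, and ± marks the standard error of a log2 difference, knockout minus control. With 2 arrays against 2, an exact two-sided permutation test cannot go below p = 0.333, so the tests rest on limma's variance estimate, which is shared across genes. In bulk tissue, fewer cells of a type and less RNA per cell cannot be told apart. The array medians of deposited linear signal were between 252 and 272, and the correlation of log2 values across tested genes was 0.9913 between the controls, 0.987 between the knockouts and 0.962 to 0.9849 between groups. The targeted gene Ovol2 read 8.05 and 8.31 on control arrays, against 7.85 and 7.73 on knockout arrays. The difference of -0.39 ± 0.16 did not pass (limma, adjusted p = 0.17). Both knockout values lay under 7.97, the mean signal below which genes were not tested, so Ovol2 was tested only through its control signal. How far Ovol2 was lost cannot be read from a signal this near that level.

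**Figure D1:**
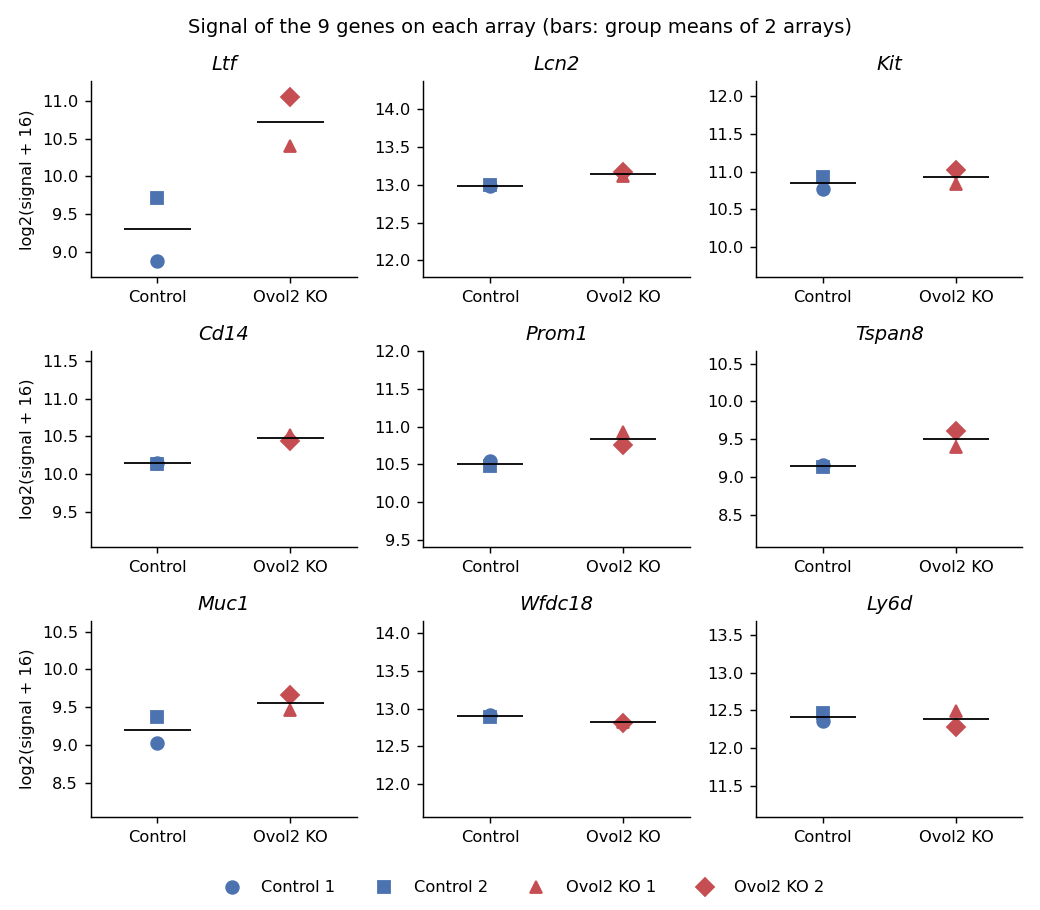
Each panel plots 1 of the 9 genes, with log2(signal + 16) on a vertical axis that spans the same range in every panel, 1 point per array and a bar at each group's mean of 2 arrays. Ltf has the widest spread both within and between groups, from 8.88 to 11.05, while the points of Lcn2 and Wfdc18 in a group nearly coincide.

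The sequence upstream of the transcription start is shown for the 3 genes that rose and had a window searched, and for Lcn2, which shares its role in iron withholding with Ltf. Windows of 300 bases, 250 before and 50 after the start, came from RefSeq on build GRCm38.p6 and were matched by symbol for Ltf, Lcn2, Kit, Prom1, Tspan8, Muc1 and Wfdc18. Cd14 and Ly6d have no window here. The 250 bases before the start are printed 5′ to 3′ on the gene's strand, and capitals mark matches on either strand to a pattern resembling sites of NF-kB, GGG and CC with 5 unspecified bases between them. The windows lie at chr9:111019042-111019291 (plus strand) for Ltf, chr2:32387740-32387989 (minus) for Lcn2, chr10:115817034-115817283 (plus) for Tspan8 and chr5:44101737-44101986 (minus) for Prom1, the first of its 2 windows.
Ltf: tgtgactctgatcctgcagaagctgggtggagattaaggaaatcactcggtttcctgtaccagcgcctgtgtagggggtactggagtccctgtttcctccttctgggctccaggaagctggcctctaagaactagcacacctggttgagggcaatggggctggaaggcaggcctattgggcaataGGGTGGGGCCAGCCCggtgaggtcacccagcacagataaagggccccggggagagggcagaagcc
Lcn2: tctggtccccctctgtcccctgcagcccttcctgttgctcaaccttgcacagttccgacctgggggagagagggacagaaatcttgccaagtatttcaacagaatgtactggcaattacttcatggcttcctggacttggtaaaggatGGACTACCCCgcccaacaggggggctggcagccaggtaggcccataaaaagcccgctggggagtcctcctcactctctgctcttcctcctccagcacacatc
Tspan8: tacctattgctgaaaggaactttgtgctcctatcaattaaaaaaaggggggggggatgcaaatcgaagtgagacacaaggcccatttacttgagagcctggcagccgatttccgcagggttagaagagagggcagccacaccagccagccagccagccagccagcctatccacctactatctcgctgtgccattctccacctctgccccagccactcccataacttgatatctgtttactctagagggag
Prom1: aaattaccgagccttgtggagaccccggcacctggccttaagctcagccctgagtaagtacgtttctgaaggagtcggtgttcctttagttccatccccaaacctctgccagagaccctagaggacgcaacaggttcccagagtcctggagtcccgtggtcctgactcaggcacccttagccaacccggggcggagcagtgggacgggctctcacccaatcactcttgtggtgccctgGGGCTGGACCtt

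Ltf held 4 overlapping matches to the NF-kB-like pattern, beginning at -65, -61 and -60 from its start (at -60 on both strands), which merge into 1 run of capitals, and Lcn2 held 1 match beginning at -102. Each window of Prom1 and of Kit held 1 match, and Tspan8, Muc1 and Wfdc18 held 0. This loose pattern occurred in 50.8% of all 32851 windows, so a match carries little information. CCGTTA, the core of the sequence that OVOL proteins bind, occurred in 2.76% of all windows, and TTCNNNGAA, a pattern of STAT factors, in 8.30%; neither occurred in a window of these 7 genes. The absence of those letters says nothing about binding elsewhere. The windows also differed in base composition: Kit had 69.0% G and C and 20 or 21 CpG pairs, Prom1 10 CpG pairs in the printed window, Ltf 58.7% and 4, Lcn2 56.3% and 3, and Wfdc18 39.0% and 2, where the medians of all windows were 52.7% and 7.

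Ltf, which encodes the iron-binding antimicrobial protein lactoferrin, had the largest difference of the 9 genes. Its deposited linear signal was 445 and 833 on control arrays, against 1385 and 2069 on knockout arrays, or 8.88, 9.72, 10.40 and 11.05 on the log2 scale. Both knockout arrays were above both controls, but the controls differed by 0.84 from each other, more than the 0.69 that separated control replicate 2 from knockout replicate 1. The log2 difference was 1.43 ± 0.25 (95% CI 0.86 to 1.99, adjusted p = 0.00792). It ranged from 1.003 to 1.83 when single arrays were left out, fits in which 1 group held a single array. The call of Ltf was lost with a robust prior (limma, adjusted p = 0.291, the highest of its alternatives) and with a prior without the trend (0.085). The lowest adjusted p, 5.63e-72, came with the replicate number as a block. That fit took the variance as known, although the controls differed by 0.84.

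Lcn2, which encodes lipocalin 2, a secreted protein that binds bacterial iron carriers, differed far less. It read 12.98 and 12.99 on control arrays, against 13.11 and 13.16 on knockout arrays, groups that do not overlap. The log2 difference of 0.15 ± 0.04 (95% CI 0.05 to 0.25) did not pass (adjusted p = 0.063). It passed in 6 of 15 alternatives, among them the deposited values without further normalization (0.16, adjusted p = 0.00752) and the arrays left when knockout replicate 1 was dropped (0.18, 0.0491). Its adjusted p went from 0.00752 to 0.531.

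Wfdc18, which encodes a small secreted protein with a WAP domain, a fold found in protease inhibitors and antimicrobial proteins, leaned the other way. Its signals were 12.91 and 12.88 on control arrays, against 12.83 and 12.81 on knockout arrays. Both knockout arrays were lower, by a log2 difference of -0.081 ± 0.045 (95% CI -0.18 to 0.019, adjusted p = 0.296), and 0 of 15 alternatives passed.

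Among the surface proteins, Cd14 encodes the co-receptor that hands bacterial lipopolysaccharide to Toll-like receptor 4. Its deposited signal was 1088 and 1120 on control arrays, against 1500 and 1354 on knockout arrays, or 10.15, 10.14, 10.52 and 10.44 on the log2 scale. The controls differed by 0.007 and the closest control and knockout arrays by 0.30. The gene rose by 0.34 ± 0.06 (95% CI 0.20 to 0.49, adjusted p = 0.0105). The value stayed between 0.30 and 0.38 over all 15 alternatives, but the adjusted p, from 1.97e-05 to 0.193, missed the threshold when control replicate 1 was dropped (0.34, 0.058), with median centring (0.32, 0.193) and without the trend (0.0699).

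Prom1 encodes prominin 1 (CD133), a membrane glycoprotein of cell protrusions, which in mouse mammary epithelium is used to mark hormone-sensing luminal cells rather than progenitors. Its deposited signal was 1444 and 1427 on control arrays, against 1974 and 1686 on knockout arrays, or 10.54, 10.48, 10.93 and 10.75 on the log2 scale. Both knockout arrays were higher, and the gene rose by 0.33 ± 0.07 (95% CI 0.17 to 0.49, adjusted p = 0.0187). With control replicate 2 dropped the difference was 0.29 (adjusted p = 0.0629), with median centring 0.29 (0.191), and without the trend the adjusted p was 0.107, in a range from 4.3e-06 to 0.191.

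Tspan8 encodes a tetraspanin, a membrane protein that organises other surface proteins into patches. Its deposited signal was 537 and 541 on control arrays, against 683 and 753 on knockout arrays, or 9.15, 9.13, 9.39 and 9.60 on the log2 scale. The gene rose by 0.36 ± 0.10 (95% CI 0.14 to 0.57, adjusted p = 0.0443), just under the threshold. It was past the threshold in 9 of 15 alternatives, and missed it when control replicate 1 (0.37, adjusted p = 0.178), control replicate 2 (0.34, 0.137) or knockout replicate 2 (0.25, 0.189) was dropped, in a range from 0.000577 to 0.221.

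Muc1, the gene of a heavily glycosylated apical membrane mucin, had a difference of similar size with a wider error. It read 9.02 and 9.37 on control arrays, against 9.46 and 9.66 on knockout arrays, so the groups did not overlap, but control replicate 2 lay 0.092 from knockout replicate 1 and 0.35 from the other control. The log2 difference of 0.36 ± 0.12 (95% CI 0.09 to 0.64) did not pass (adjusted p = 0.0917). It was 0.19 without control replicate 1 (adjusted p = 0.566), 0.53 without control replicate 2 (0.0245) and 0.46 without knockout replicate 1 (0.000433), the lowest and highest adjusted p of its alternatives being 0.000433 and 0.566.

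Kit, which encodes the receptor tyrosine kinase used to sort luminal progenitors, did not pass. Its values were 10.77 and 10.92 on control arrays, against 10.84 and 11.02 on knockout arrays, with knockout replicate 1 between the controls. The log2 difference was 0.085 ± 0.077 (95% CI -0.087 to 0.26, adjusted p = 0.536), and 0 of 15 alternatives passed. Its ligand was different: Kitl, the gene of stem cell factor, read 11.25 and 11.33 on control arrays, against 11.69 and 11.88 on knockout arrays and rose 1.41-fold (0.50 ± 0.07, adjusted p = 0.00255), passing in 14 of 15 alternatives (adjusted p = 0.0643 without the trend, the highest of a range from 1.66e-18). Of the other 6 tested signalling partners of KIT none rose or fell in limma's fit, the largest differences being -0.21 for Ptpn6, -0.15 for Grb2 and 0.12 for Shc1.

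Ly6d encodes a small lipid-anchored surface protein of the Ly6 family. It read 12.36 and 12.47 on control arrays, against 12.49 and 12.28 on knockout arrays, so the knockout arrays lay on either side of the controls. The log2 difference was -0.031 ± 0.070 (95% CI -0.19 to 0.13, adjusted p = 0.817), with 0 of 15 alternatives past the threshold.

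**Figure D2:**
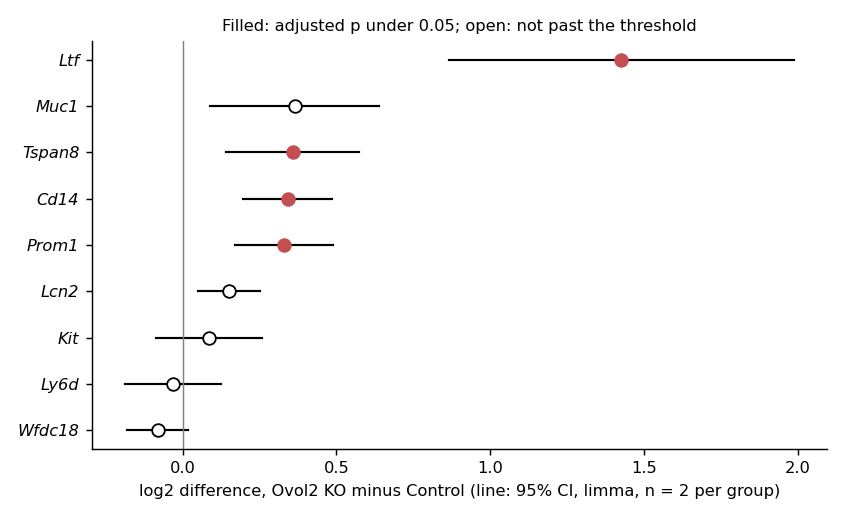
The horizontal axis is the log2 difference, knockout minus control, with its 95% CI from limma for each of the 9 genes, and filled points passed an adjusted p of 0.05. Ltf stands at 1.43, and the intervals of Kit, Ly6d and Wfdc18 include 0.

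**Figure D3:**
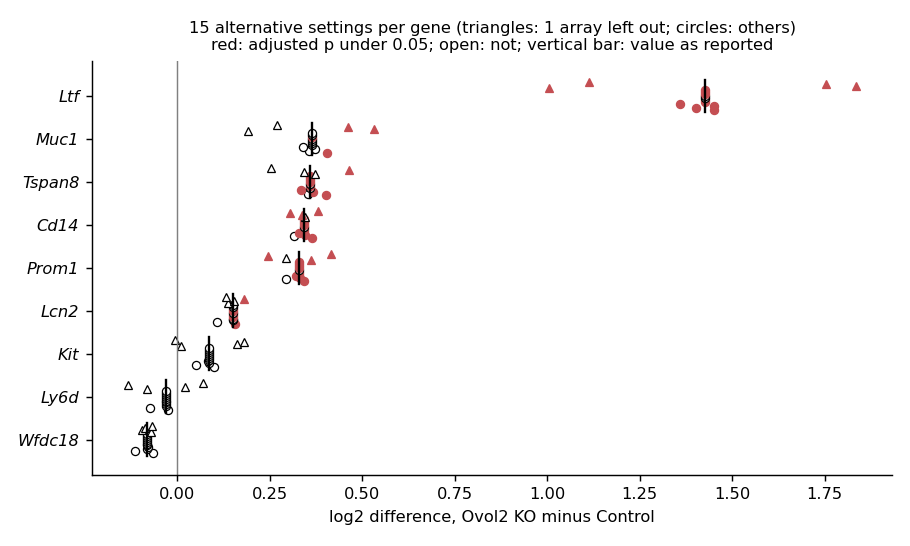
Each row shows the log2 difference of 1 gene under 15 alternative settings, with triangles where 1 array was left out, red where the adjusted p was under 0.05, and a vertical bar at the reported value. The points of Ltf spread from 1.003 to 1.83 and those of Cd14 from 0.30 to 0.38, and those of Kit and Ly6d fall on both sides of 0.

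Other luminal progenitor genes went both ways, beside the 6.29% of all tested genes that rose and the 4.45% that fell. Of a list of 13, all tested, 4 rose, 1 fell and 8 did not pass, with a median log2 difference of -0.059. Those that rose included Trf, the gene of transferrin and a relative of Ltf, which went from 9.93 and 9.90 to 11.07 and 10.97 (2.15-fold, 1.11 ± 0.06, adjusted p = 4.55e-05). Trf passed in 15 of 15 alternatives, with a highest adjusted p of 0.0202. Slpi, a secreted protease inhibitor with WAP domains, rose 1.80-fold (0.85 ± 0.14, adjusted p = 0.00545) from signals of 8.10 and 8.41 near the filter level of 7.97, and Cd24a, a surface marker of luminal cells, rose by 0.26 ± 0.05 (adjusted p = 0.00866). Itgb3, the integrin gene used to sort luminal progenitors, fell from 10.10 on both control arrays to 9.66 and 9.08 (-0.73 ± 0.15, adjusted p = 0.0155). It was -0.44 with knockout replicate 2 dropped, and missed the threshold with control replicate 1 dropped (-0.72), with a robust prior and without the trend. Chosen after their values were seen, Elf5, a transcription factor gene of the alveolar lineage, differed by 0.011 ± 0.070 and Aldh1a3, a retinaldehyde dehydrogenase gene, by -0.23 ± 0.07 (adjusted p = 0.0661), which passed without knockout replicate 2 (-0.28).

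General luminal genes were read from fixed lists, beside the 10.7% of all tested genes that passed in either direction. Of 8 pan-luminal genes 0 rose and 0 fell in limma's fit, with differences no larger than those of Cdh1 (-0.11) and Krt18 (0.083), and Krt19 and Krt7 had -0.047 and 0.056. Of 8 hormone-sensing luminal genes 2 rose and 0 fell, with a median of 0.13: Wnt4 by 0.45 ± 0.10 (adjusted p = 0.0215) and the progesterone receptor gene Pgr by 0.36 ± 0.08 (adjusted p = 0.024). Neither passed without control replicate 1 (0.28 and 0.23). The estrogen receptor gene Esr1 differed by 0.24 and Tnfsf11, the gene of RANK ligand, by -0.28, and neither passed. Esr1 passed without control replicate 2 (0.34) or knockout replicate 1 (0.33), and Tnfsf11 without knockout replicate 2 (-0.42). Esr1 was 0.14 without control replicate 1 and 0.16 without knockout replicate 2, and Tnfsf11 was -0.15 without knockout replicate 1.

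Of 11 other tetraspanin genes 0 rose and 0 fell, with values of 0.19 for Tspan4, 0.093 for Cd81, 0.087 for Cd63 and 0.083 for Cd9, although Tspan4 passed without knockout replicate 2 (0.28) and was 0.097 without knockout replicate 1. The 2 tested membrane mucin genes Muc20 and Muc15 had 0.18 and 0.11 and did not pass. Of 4 tested Ly6 relatives Ly6g6c rose by 0.46 ± 0.13 (adjusted p = 0.0473) and Lypd3 fell by 0.24 on the log2 scale (adjusted p = 0.0312), while Ly6k and Ly6e had 0.17 and 0.12. Ly6g6c did not pass without control replicate 1 (0.34) or knockout replicate 1 (0.41), nor Lypd3 without control replicate 1 (-0.22) or 2 (-0.26), and Ly6e passed without control replicate 2 (0.17) and was 0.069 without control replicate 1. Of 3 tested WAP domain genes besides Wfdc18, Slpi rose as above, Wfdc2 rose by 0.26 ± 0.07 (adjusted p = 0.0355) and Wfdc1 had -0.046. Wfdc2 missed the threshold when control replicate 1 (0.28), control replicate 2 (0.24) or knockout replicate 1 (0.16) was dropped.

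Secreted defence genes also moved in both directions, beside the 6.29% of all tested genes that rose and the 4.45% that fell. Of 21 such genes on the array 11 were under the filter level on all 4 arrays, and of the 10 tested 4 rose, 3 fell and 3 did not pass, with a median of 0.16 over those tested and -0.040 over all 21. Chil1, the gene of a secreted chitinase-like protein, went from 9.77 and 9.91 to 11.65 and 10.91 (2.71-fold, 1.44 ± 0.18, adjusted p = 0.00167), but not past the threshold with a robust prior or without the trend. Lbp, which encodes the protein that carries lipopolysaccharide to CD14, rose 1.69-fold (0.75 ± 0.11, adjusted p = 0.00268) and passed in 14 of 14 alternatives in which it was tested. Cp, the gene of the copper-binding ferroxidase ceruloplasmin, named after its values were seen, went from 10.66 and 10.73 to 11.41 and 11.65 (0.83 ± 0.08, adjusted p = 0.000474). The lysozyme genes Lyz1 and Lyz2 fell by 1.14 and 0.96 on the log2 scale (adjusted p = 0.0176 and 0.0322), by 0.70 and 0.47 without knockout replicate 2, and Lyz2 by 1.45 without knockout replicate 1. Lyz2 did not pass without control replicate 1 (-1.03) or 2 (-0.89), and neither passed with a robust prior. They are near-identical copies whose probes may share signal, and Lyz2 is also a macrophage gene.

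The partners of Ltf, Lcn2 and Cd14 in their pathways were read from fixed lists, beside the 6.29% of all tested genes that rose and the 4.45% that fell. Of 9 iron-binding and iron uptake genes 2 rose and 0 fell: Trf as above, and Lrp1, an uptake receptor that can bind lactoferrin, by 0.58 ± 0.08 (adjusted p = 0.00324). The transferrin receptor gene Tfrc had -0.30 and the lipocalin 2 receptor gene Slc22a17 0.12, and neither passed; Tfrc passed without knockout replicate 1 (-0.51) and was -0.086 without knockout replicate 2. Of 7 tested genes of lipopolysaccharide recognition only Lbp rose and 0 fell, with 0.15 for Tlr2, -0.087 for Ly96 and 0.066 for Tirap. Of 13 NF-kB and STAT3 response genes 5 rose, 0 fell and 8 did not pass, with a median of 0.22. Among them were Cebpd, a transcription factor gene of the acute-phase response, at 0.63 ± 0.12 (adjusted p = 0.0115), and the cytokine receptor genes Osmr at 0.51 ± 0.08 (adjusted p = 0.00438) and Il6ra at 0.45 ± 0.10 (adjusted p = 0.0212). Cebpd did not pass without control replicate 1 (0.53), nor Il6ra without control replicate 1 (0.42) or 2 (0.48). Icam1 had 0.41 and did not pass, but did without control replicate 2 (0.52) or knockout replicate 1 (0.62), and was 0.29 without control replicate 1 and 0.20 without knockout replicate 2.

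**Figure D4:**
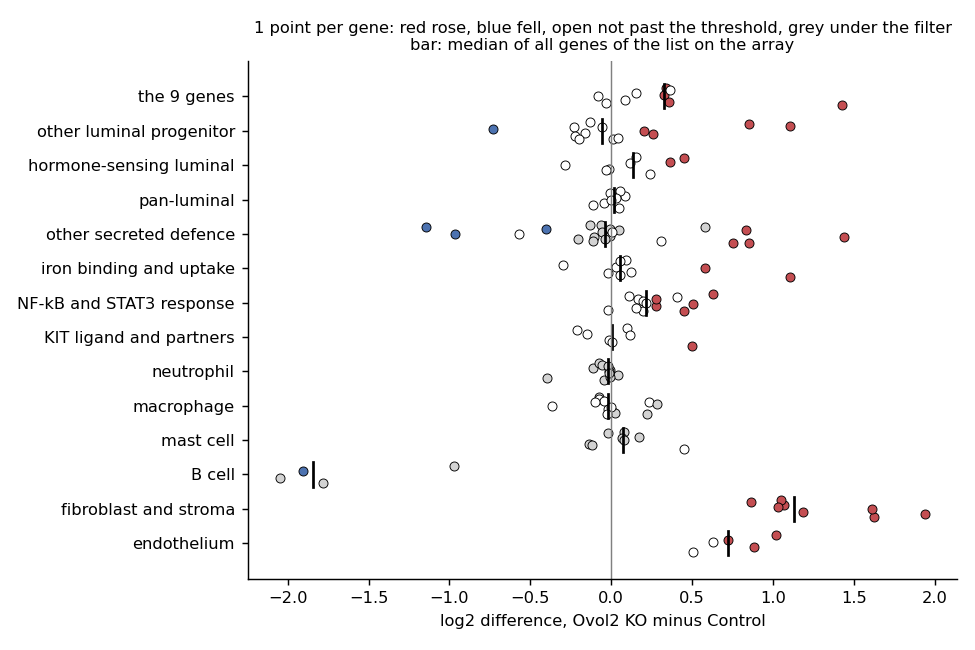
Each point is 1 gene of a list, placed by its log2 difference, knockout minus control, with red for genes that rose, blue for those that fell, open for those not past the threshold, grey for those under the filter and a bar at the list's median on the array. The 9 genes have a median of 0.33, other luminal progenitor genes -0.059 and fibroblast markers 1.13.

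Markers of other cell types that express some of the 9 genes were measured beside them. All 11 neutrophil markers were under the filter level on all 4 arrays, among them Camp, Elane and Csf3r, and their summed deposited signal was 1248 to 1461 in the controls and 1229 to 1384 in the knockouts. Of 13 macrophage markers 8 were tested, and 0 rose or fell; their sum was 4250 to 4648 in the controls and 3997 to 5183 in the knockouts. The differences were -0.37 for Ptprc, 0.24 for Csf1r, -0.10 for Tyrobp, -0.075 for Itgam, -0.022 for Cd68 and -0.0021 for C1qb. The knockout mean of Ptprc, 7.91, was under the filter level, so Ptprc was tested only through its control signal. Tyrobp passed without knockout replicate 1 (-0.38). Of 8 mast cell markers 6 were under the filter on all arrays, including Mcpt4, and 1 was tested: Cpa3, with 0.45 (limma, adjusted p = 0.124). The control mean of Cpa3, 7.77, was under the filter level, so the gene was tested only through its knockout signal. The mast cell sum was 1118 to 1311 and 1233 to 1437.

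The melanocyte sum was 737 to 799 in the controls and 810 to 1038 in the knockouts, with 4 of 6 markers under the filter on all arrays. Both knockout arrays were higher for 2 of the 6 markers, against 26.4% of all tested genes, and lower for 1, against 29.9%. Values overlapped for 3. Dct, named after its values were seen and not tested, read 6.56 and 6.76 on control arrays, against 6.95 and 8.14 on knockout arrays. Mitf differed by 0.46 (limma, adjusted p = 0.134), and its control mean of 7.83 was under the filter level. Of 6 epidermal markers on the array, 4 were tested and 0 rose or fell, with -0.16 for Krt10, -0.12 for Krt1, 0.11 for Sbsn and -0.022 for Ivl, and sums of 1648 to 1789 and 1643 to 1674. B-cell markers were lower: of 4 on the array only Cd79b was tested, and it fell by 1.91 on the log2 scale (limma, adjusted p = 0.00118). Its knockout values, 7.68 and 7.19, were under the filter level, so it was tested only through its control signal. The sum of the 4 markers was 967 to 1412 in the controls and 297 to 339 in the knockouts. In the same arrays Ly6d, which B-lineage cells can express, differed by -0.031.

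Stromal markers were higher in the same knockout arrays in which Ltf, Tspan8, Cd14 and Prom1 rose. Of 8 fibroblast markers 8 rose and 0 fell, led by Lum (1.94), Pdgfra (1.62), Mmp2 (1.61) and the collagen gene Col1a2 (1.19), with Col1a1 at 1.07 and Dcn at 1.03. Their summed deposited signal was 9343 and 9697 on control arrays, against 20278 and 24951 on knockout arrays. Of 5 endothelial markers 3 rose and 0 fell, Emcn by 1.02, Kdr by 0.88 and Cdh5 by 0.72. The sum of the 5 was 2095 and 2693 on control arrays, against 3719 and 4705 on knockout arrays. Kdr read 7.57 and 7.82 on control arrays, under the filter level of 7.97, so only its knockout signal brought it into the test. The control mean of Tek, 7.94, was also under that level. Kdr did not pass without control replicate 1 (0.77). Tek had 0.63 and Pecam1 0.51, which did not pass; both passed without control replicate 2 (0.85 and 0.75) or knockout replicate 1 (0.82 and 0.67), and Pecam1 without knockout replicate 2 (0.35). Without control replicate 1 Tek was 0.41 and Pecam1 0.25, and neither passed. The calls of Cdh5 and Col1a1 were lost under a robust prior, and those of Cdh5, Emcn and Kdr under a prior without the trend. Of 2 tested adipocyte markers Fabp4 rose by 0.58 and Plin1 had -0.084. The sum of the 5 markers was 1826 to 1895 in the controls and 2319 to 2680 in the knockouts. Only Fabp4 of the 5 rose, and 3 were under the filter on all arrays, so the sum does not describe adipocyte markers in general. The part of these cells in the rise of the 4 genes was not tested.

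Basal epithelial markers changed in both directions, with 3 of 6 higher and 1 lower, beside 6.29% and 4.45% of all tested genes. Oxtr rose by 0.94, Myh11 by 0.74 and Acta2 by 0.21, Trp63 fell by 0.36, and Krt14 and Krt5 had 0.43 and -0.021 and did not pass. Without control replicate 1 neither Acta2 (0.18) nor Trp63 (-0.32) passed, and Acta2 did not without knockout replicate 2 (0.15). Krt14 passed without knockout replicate 1 (0.72) and was 0.14 without knockout replicate 2, and Krt5 passed without knockout replicate 2 (-0.22) and was 0.18 without knockout replicate 1. Neither Oxtr nor Myh11 passed with a robust prior or without the trend. The sum over the list was 17831 to 19385 in the controls and 21061 to 25139 in the knockouts.

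**Figure D5:**
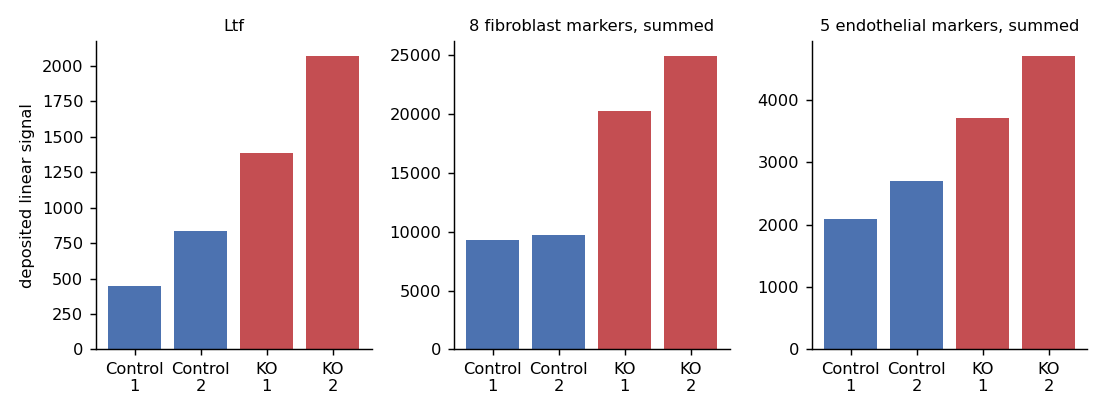
Bars show the deposited linear signal on each array for Ltf and for the sums of 8 fibroblast and 5 endothelial markers, with axes from 0. In all 3 panels the lowest bar is control replicate 1 and the highest knockout replicate 2; Ltf goes from 445 to 2069 and the fibroblast sum from 9343 to 24951.

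The genes with the pattern most like that of each riser were found by the Euclidean distance between log2 profiles over the 4 arrays, each centred on its own mean, among 11962 other tested genes. With 4 arrays in 2 groups many genes share a pattern, so the distances are a description. Nearest to Ltf were Crabp1 (distance 0.29), a retinoic acid-binding protein gene, Fmod (0.31), which encodes the matrix proteoglycan fibromodulin, Slc38a11 (0.33) and Mfap4 (0.33), a gene of elastic fibres. Their log2 differences were 1.52, 1.60, 1.73 and 1.42, and their 2 controls also stood apart, at 8.82 and 9.40 for Fmod. Nearest to Cd14 were Snora73b (0.020), 1110032A03Rik (0.024), Leng8 (0.046) and Acadsb (0.048), with differences from 0.31 to 0.39. Nearest to Prom1 were Rmdn2 (0.040), Slc25a35 (0.046), Bche (0.062) and Snora73b (0.062), and nearest to Tspan8 Rbbp6 (0.040), Cygb (0.044), Scrn3 (0.044) and Tmem88 (0.045). The profiles were centred but not scaled, so genes with unlike sizes of difference lie far apart whatever their pattern. Ltf, at 1.43, was therefore not among the nearest 4 genes of the other risers, at 0.33 to 0.36, nor they of Ltf. This says nothing about the shape of their patterns.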

How the data were processed

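RNA from pools of isolated terminal end buds was hybridised to 4 Affymetrix whole-transcript arrays, per the labels' protocols. The authors deposited 1 linear signal intensity per probe set and array; per the submitters' processing notes, Affymetrix Expression Console 1.1.1 and PLIER 2.0 were used. How background was corrected, how arrays were normalized and on which build is not given in the sources used here. Of 35556 probe sets 21789 carried 1 gene symbol, 1621 several and 12146 none in the platform annotation; 21698 matched RefSeq (GRCm38.p6), which changed 0 symbols. The probe set with the highest mean stood for a gene. The intensities were taken as log2(signal + 16), quantile normalized, and genes with a mean under the 40th percentile (7.97, about 235 linear) were not tested. limma 3.58.1 in R 4.3.3 (lmFit, eBayes with trend, two-sided) adjusted p-values by Benjamini-Hochberg over 11963 genes, of which 1285 passed; it was tested on simulated data.

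The 9 genes and all lists were chosen with earlier results of these data known. Besides the 9 genes and Ovol2, the text names, per list, up to 4 tested genes with the largest difference, in cell type lists also up to 3 with the highest control signal, and for each riser the 4 nearest genes. Alternatives covered normalization, offset, filter, variance prior, probe set choice, replicate block and leaving out each array. The pools are biological replicates per the labels; only 2 per group limit precision. No batch is given in the labels.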

Additional observations from a re-analysis of the deposited data

How the results depend on the processing

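Of the 15 alternatives for each gene, 14 were planned and the crossed pairing was added after the data were seen. The count of genes past the threshold, 1285, became 753 with median centring, 188 with a variance prior without the trend and 2246 with the replicate block, and ranged from 451 (without control replicate 1) to 2346 (without knockout replicate 1) when 1 array was left out. Of the 9 genes 4 passed; 1 (Ltf) passed with median centring and 0 without the trend, where 1.57% of all genes passed, and 2 to 6 passed with 1 array left out. With the deposited values or the replicate block 6 passed, adding Lcn2 and Muc1. Of all tested genes 12.8% passed with the deposited values and 18.8% with the replicate block, against 10.7% in the main fit and 6.29% with median centring. With 1 array left out, the fewest and the most of the 9 genes passed in the same fits as the fewest and the most of all genes. The changes in these counts are therefore not particular to the 9 genes. The fits of the deposited values, median centring, the replicate block and those without 1 knockout array estimated an infinite prior df, so they take the variance as known. In fits that left 1 array in a group, that array is assumed to vary like the others.

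The replicate numbers are not stated to pair the pools. Deviations from the group means of same-numbered arrays correlated at -0.196, and the crossed pairing gave 1203 genes and 4 of the 9, against 2246 and 6 with the replicate block.

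Among the named genes that were tested, signs turned for 13, whose reported values were near 0 and not past the threshold. They also turned with 1 array left out for Elane, Csf3r, Mcpt4, Hdc, Mlana and Cidec, which were under the filter and not tested. With 1 array left out Kit ranged from -0.0060 to 0.18, Ly6d from -0.13 to 0.069, Krt7 from -0.018 to 0.14, Wfdc1 from -0.12 to 0.025 and Elf5 from -0.049 to 0.070. Markers of other cells ranged likewise: Tyrobp from -0.38 to 0.19, Itgam from -0.16 to 0.0091, C1qb from -0.21 to 0.21, Cd68 from -0.30 to 0.27, Sbsn from -0.021 to 0.24, Ivl from -0.15 to 0.10, Plin1 from -0.17 to 0.0039 and Krt5 from -0.22 to 0.18. In the deposited values C1qb was 0.021, Cd68 0.041 and Ivl 0.029, and with median centring Elf5 was -0.019. The cause was not tested.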
